A study of Mus musculus with 30 samples.

Results

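The 10 pancreas libraries of mice with intact p53 were placed in order of Pou5f1, the gene that encodes the reprogramming factor Oct4. They are 10 of the 30 libraries of a study of kidney and pancreas. The members were chosen by group label: 5 i4F Ink4a/Arf KO and 5 i4F pancreas libraries. Their own Pou5f1 level then split them into the 5 highest and the 5 lowest. All mice were C57BL/6 and drank 0.2 mg/ml doxycycline for 7 days; their ages are not given in the sources used here. The i4F cassette lets doxycycline switch on Oct4, Sox2, Klf4 and Myc, and the i4F Ink4a/Arf KO mice also lack the Cdkn2a locus. Beside these stand 5 pancreas libraries labelled p53 KO, whose label does not name i4F, and 15 kidney libraries, of which 10 are of the genotypes i4F Ink4a/Arf KO and i4F and 5 are i4F p53 KO.

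In vivo reprogramming forces adult cells to express transcription factors of the early embryo. Most cells respond weakly or not at all, and the tumour suppressors p53, p16Ink4a and p19Arf restrain the process. The adult pancreas is mostly acinar tissue, whose cells make digestive enzymes. When acinar cells are injured or dedifferentiate they lower these enzymes and can take on duct-like or gastric features, among them keratins and trefoil factors.

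Gene levels are FPKM, a fragment number corrected for transcript length and library size, deposited by the authors. All differences use log2(FPKM + 1), so those of genes near 1 FPKM are too small. All 10 libraries read as pancreas. Listed acinar enzymes made up 66.8% to 76.5% of all FPKM in the 5 libraries high in Pou5f1 and 70.6% to 80.8% in the 5 low. In i4F replicate 5 (share 67.4%), Prss2 and Cpa1 were counted at 0, beside medians of 87977 and 31917 FPKM. Cela1 was counted at 0 in i4F replicate 1 (share 75.2%), beside a median of 55477 FPKM. These zeros can be failed estimates, which would lower both shares. Intestinal Fabp2 was listed at 0 in all 10. One gene that dominates a library lowers the FPKM of every other, so each result was also computed after median-of-ratios scaling, which divides a library by its typical ratio to the other libraries ("scaled" values). The scaling factor ran from 0.939 to 1.59 in the 5 high libraries and from 0.748 to 1.03 in the 5 low, and 7374 to 9841 against 6587 to 7883 genes reached 1 FPKM.

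One library stood apart. In i4F replicate 4, which is among the 5 high, 9841 genes reached 1 FPKM and the scaling factor was 1.59. It also held 34.0 FPKM of the B cell gene Cd79a, 12.8 of Ms4a1 and 32.0 of the fat cell gene Adipoq, while the other 9 libraries held at most 0.666 FPKM of Cd79a. In i4F Ink4a/Arf KO replicate 1, among the 5 low, the neutrophil gene S100a8 reached 224 FPKM and the erythroid gene Alas2 13.0, although S100a8 also ran up to 136 FPKM in the high set. By Xist and Ddx3y, 4 of the 10 mice were female, namely i4F Ink4a/Arf KO replicate 1 and replicates 3 to 5 of i4F. The 3 female i4F mice are also the 3 i4F mice highest in Pou5f1, so within i4F sex and Pou5f1 cannot be told apart. In whole tissue, fewer cells of a type and less RNA per cell cannot be told apart either.

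Pou5f1 (chromosome 17, 35506018-35510772 of GRCm38) was low in every one of these pancreases. Its level was 1.91 and 1.55 FPKM in i4F Ink4a/Arf KO replicates 4 and 3, and 1.14, 1.13 and 0.832 FPKM in i4F replicates 4, 5 and 3. These are the 5 high libraries. The 5 low ones held 0.649, 0.568, 0.236 and 0.0456 FPKM in i4F Ink4a/Arf KO replicate 2, i4F Ink4a/Arf KO replicate 1, i4F replicate 1 and i4F Ink4a/Arf KO replicate 5, and i4F replicate 2 was listed at 0. The lowest library inside the high set (0.832 FPKM) and the highest outside it (0.649 FPKM) are close together. The same 5 libraries came out highest on scaled values, from 1.85 to 0.720 against 0.632 to 0 in the low set. The pancreas libraries labelled p53 KO lay far above all of these, at 24.6 to 98.2 FPKM. Whether Pou5f1 fragments came from the cassette or from the endogenous gene cannot be told apart in 1 value per gene.

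The order was not one of genotype. The high set held 2 i4F Ink4a/Arf KO and 3 i4F libraries, and the low set 3 and 2. Pou5f1 averaged 0.945 ± 0.765 FPKM in i4F Ink4a/Arf KO and 0.668 ± 0.524 FPKM in i4F pancreas (SD, n = 5 each). The difference was 0.19 on the log2 scale, which an exact two-sided permutation test did not separate from the spread between mice (p = 0.579; scaled, 0.28 and p = 0.397). Over the 7724 genes that reached 1 FPKM in 5 or more of these libraries, limma called 0 genes between the 2 genotypes at a Benjamini-Hochberg adjusted p under 0.05 (0% of genes; the smallest adjusted p was 0.999). At an unadjusted p under 0.05 there were 103 genes, and 459 after scaling, where the smallest adjusted p was 0.143. The deleted gene gives little check of the labels. Cdkn2a was listed at 0 in 4 of 5 i4F Ink4a/Arf KO libraries and at 0.112 FPKM in replicate 2, but also at 0 in 3 of 5 i4F libraries, with 0.318 and 0.0684 FPKM in i4F replicates 4 and 5.

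The other cassette factors followed the Pou5f1 order in part. Sox2, which pairs with Oct4 on DNA in stem cells, stayed under 1 FPKM throughout. It was 0.607, 0.437, 0.167, 0.366 and 0.202 FPKM in the high libraries, taken in falling order of Pou5f1, and 0.349, 0.359, 0.0509, 0.0335 and 0 FPKM in the low ones. The sets overlapped, and the 2 lowest low libraries for Pou5f1 were also the 2 lowest for Sox2. Klf4, a zinc finger factor that epithelia also use as they differentiate, was 2.44, 2.47, 3.27, 2.19 and 2.61 FPKM in the high libraries and 1.98, 1.66, 1.10, 1.32 and 1.07 FPKM in the low. The Klf4 ranges did not overlap as deposited, though they did after scaling. Myc, a growth factor-responsive regulator, was 6.96, 7.14, 11.1, 6.86 and 6.74 FPKM in the high libraries and 6.16, 6.96, 3.99, 4.93 and 3.82 FPKM in the low, with overlap at about 7 FPKM.

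**Figure D1:**
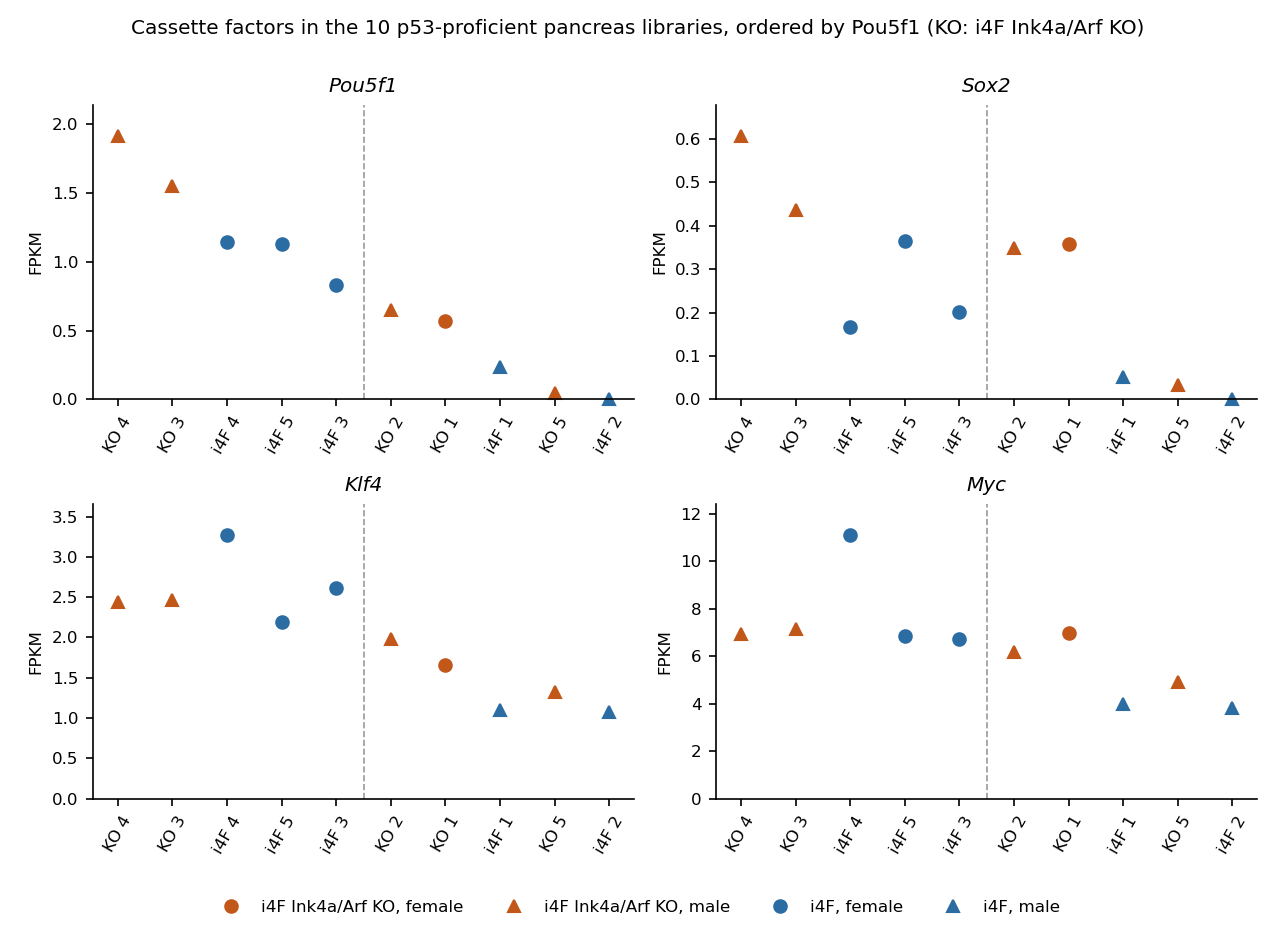
FPKM of the 4 cassette factors (vertical axes) in each of the 10 libraries (horizontal axes), in falling order of Pou5f1, with the 5 high libraries left of the dashed line and the 5 low ones right of it. Each point is 1 library, coloured by genotype and shaped by sex; Klf4 lies at or above 2.19 FPKM in the high libraries and at or below 1.98 FPKM in the low ones, while Sox2 and Myc overlap.

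Spearman's rho with Pou5f1 over the 10 libraries was 0.83 for Sox2, 0.84 for Klf4 and 0.79 for Myc, and 0.81, 0.82 and 0.56 on scaled values. Pearson's r on the log2 scale was 0.87, 0.86 and 0.76. Without the 2 libraries farthest from the median of Pou5f1 (i4F Ink4a/Arf KO replicate 4 and i4F replicate 2), r was 0.75, 0.85 and 0.74. These values and all others that follow Pou5f1 in the 10 libraries are descriptions without a test, since Pou5f1 itself set the order. The libraries share 1 table, and their scaling factor, number of detected genes and acinar share moved with Pou5f1. Spearman's rho with Pou5f1 was 0.685 for the scaling factor, 0.612 for the number of genes at 1 FPKM and -0.770 for the acinar share. That share includes the enzymes listed at 0 in i4F replicate 5 and i4F replicate 1.

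Nanog, a pluripotency gene outside the cassette, gave no such order. Its highest level was 0.153 FPKM, in i4F Ink4a/Arf KO replicate 2 of the low set, and its rho with Pou5f1 was -0.19. Of 25 pluripotency genes listed, 4 had enough signal to be ranked. All 4 were higher on average in the high set as deposited, as were 96.7% of all genes, and 2 of 4 scaled, as were 41.3%. Of the 4, 3 (scaled, 0) reached rho of 0.7, beside 19.5% (scaled, 1.75%) of all genes, and their median rho was 0.75 (scaled, 0.27). Klf2, a zinc finger factor that endothelium also expresses, was 2.51, 2.97, 12.3, 1.98 and 2.81 FPKM in the high libraries and 1.55, 1.87, 1.24, 1.85 and 1.55 FPKM in the low, separated as deposited but not scaled. The Nodal inhibitor Lefty1 and the epithelial cadherin Cdh1 had rho of 0.75 and 0.67 (scaled, 0.35 and 0.21), and the sets of both overlapped. Il6, a cytokine that aids reprogramming in tissue, was listed at 0 in 9 of the 10 libraries. Trp53 was 4.16, 2.58, 6.99, 3.44 and 3.01 FPKM in the high libraries and 2.91, 2.83, 1.94, 1.97 and 1.64 FPKM in the low, with rho of 0.78 (scaled, 0.71). The sets of Trp53 overlapped, since i4F Ink4a/Arf KO replicate 3 lay below 2 of the low libraries. Cdkn1a, the p53 target that encodes the cell cycle inhibitor p21, spread more widely. It was 23.1, 15.4, 35.9, 8.10 and 28.3 FPKM in the high libraries and 19.1, 18.1, 2.34, 9.51 and 2.18 FPKM in the low, with rho of 0.62 (scaled, 0.54).

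How many genes followed Pou5f1 depended on the scale. As deposited, 253 of 7724 genes (3.28%) had every high library above every low one and 1 gene (0.0129%) the reverse. That gene is Cpa1, an acinar carboxypeptidase listed at 0 in i4F replicate 5 although the median library held 31917 FPKM, so that 0 can be a failed estimate. The other high libraries also lay below the low ones, but narrowly, at most 31617 FPKM against at least 32217 (scaled, 31399.8 against 31404.8). Spearman's rho was at least 0.7 for 1508 genes (19.5%) and at most -0.7 for 4 (0.0518%). After scaling, 20 genes (0.259%) were separated upwards and 42 (0.544%) downwards, with 135 (1.75%) at or above 0.7 and 140 (1.81%) at or below -0.7. The median rho of all genes was 0.55 as deposited and -0.04 scaled, and 95.1% of genes as deposited and 45.3% scaled had a positive rho. The mean was higher in the high set for 7467 genes (96.7%) as deposited and for 3188 (41.3%) scaled, with a median difference of 0.27 (scaled, -0.03). The counts of gene lists are read against these shares. On both scales, 13 genes were separated upwards, 1 downwards, and 117 and 3 passed 0.7 and -0.7. Single libraries moved the deposited counts: 1180, 776, 583 and 470 genes were separated upwards without i4F Ink4a/Arf KO replicate 2, i4F Ink4a/Arf KO replicate 1, i4F Ink4a/Arf KO replicate 3 and i4F replicate 3. The 1508 genes at rho of 0.7 became 3469, 2952 and 878 without i4F Ink4a/Arf KO replicate 3, i4F Ink4a/Arf KO replicate 4 and i4F replicate 2.

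**Figure D2:**
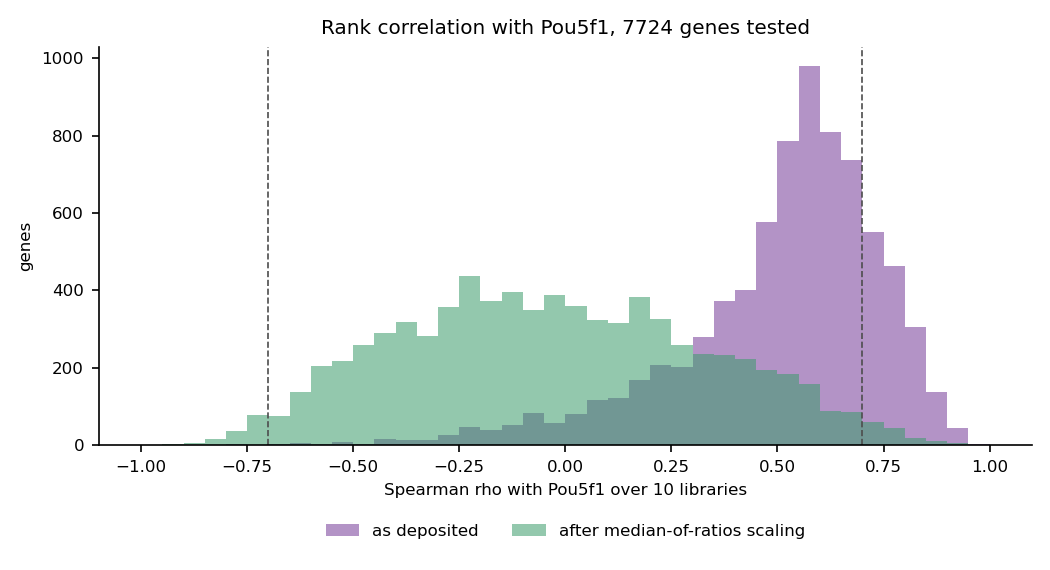
Spearman's rho of each of 7724 genes with Pou5f1 over the 10 libraries (horizontal axis) against the number of genes (vertical axis), as deposited and after median-of-ratios scaling, with dashed lines at -0.7 and 0.7. As deposited the distribution sits at a median of 0.55, and scaling moves the median to -0.04.

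The genes whose order was most like that of Pou5f1 on both scales were led by Psca, Mal2 and Tff1, which lie on chromosome 15 (74714839-74717069), chromosome 15 (54571192-54602847) and chromosome 17 (31161395-31165277) of GRCm38 in the GENCODE M21 annotation. Psca encodes a GPI-anchored surface protein of stomach, bladder and prostate epithelium. Its level was 12.5, 4.32, 3.46, 1.17 and 3.03 FPKM in the high libraries, in falling order of Pou5f1, and 1.66, 0.562, 0.107, 0.353 and 0 FPKM in the low. A single pair of libraries overlapped, i4F replicate 5 and i4F Ink4a/Arf KO replicate 2. Spearman's rho was 0.95 (scaled, 0.92) and the mean difference 1.76 (scaled, 1.61).

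Tff1, a trefoil peptide that the stomach's surface mucous cells secrete, had the widest range of these genes. It was 20.3, 28.0, 4.79, 4.77 and 5.95 FPKM in the high libraries and 4.01, 1.78, 0.429, 1.19 and 0.432 FPKM in the low. The 2 high i4F Ink4a/Arf KO libraries stood well above the 3 high i4F ones, and no low library reached a high one as deposited. The mean difference was 2.23, and 1.99 after scaling, where the sets overlapped. Mal2, a membrane protein of apical transport in polarized epithelium, was 5.78, 5.18, 3.96, 5.14 and 4.03 FPKM in the high libraries and 3.90, 3.74, 1.92, 2.43 and 1.63 FPKM in the low. Its rho was 0.95 (scaled, 0.90). The boundary between the sets was narrow as deposited. After scaling the sets overlapped, with i4F replicate 4 at 2.49. Without i4F replicates 4 and 5, or in the 6 male libraries alone, rho for Psca and Mal2 was 0.94 to 0.98 on both scales, and for Tff1 it was 0.90 and 0.77.

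The other 9 of the 12 genes most like Pou5f1 were of mixed function. Tagln2, an actin-bundling protein, was 49.5, 41.8, 56.8, 33.9 and 37.5 FPKM in the high libraries and 33.7, 32.6, 17.9, 21.9 and 14.0 FPKM in the low. Rrp15, Ftsj3 and Ccdc86 are nucleolar proteins, of which the first 2 act in ribosome assembly. Rrp15 ran from 1.77 to 2.83 FPKM in the high libraries and from 0.865 to 1.94 FPKM in the low. Psma3 is a proteasome subunit, Prep a cytosolic peptidase and Nek6 a mitotic kinase. The 2 remaining, 4930471M23Rik and 4930444A02Rik, carry clone names only. Leaving out any 1 library, rho as deposited stayed at or above 0.77 for all 12.

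By the stricter rule of separation on both scales, 8 genes were named: Arrdc4, Rpia, Lgals3bp, Vwa5a, Klf6, Cxcl12, Ptgfrn and Parp12. Rpia is an isomerase of the pentose phosphate pathway and Parp12 an ADP-ribosyltransferase that interferon induces. Arrdc4, an arrestin that is induced by glucose in many cells, was 1.94, 1.92, 2.60, 2.43 and 2.08 FPKM in the high libraries and 1.31, 1.52, 1.23, 1.11 and 0.733 FPKM in the low. Lgals3bp, a secreted galectin-binding glycoprotein, was 10.7, 9.75, 26.9, 21.6 and 10.7 FPKM in the high libraries and 8.78, 7.36, 7.12, 6.82 and 6.69 FPKM in the low. The 2 i4F libraries with the largest scaling factors carried its highest values. Klf6, an immediate early zinc finger factor, was 2.07, 1.88, 5.41, 2.72 and 2.40 FPKM in the high libraries and 1.75, 1.81, 1.25, 1.38 and 1.23 FPKM in the low. Cxcl12, a chemokine of stromal cells, was 6.09, 4.69, 22.8, 8.92 and 5.48 FPKM in the high libraries and 3.92, 4.67, 3.42, 2.86 and 3.52 FPKM in the low. For Cxcl12 the gap between the sets was 4.69 against 4.67 FPKM, and i4F replicate 4 stood alone above 10. Since separation fixed this choice, it is no support for these 8.

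**Figure D3:**
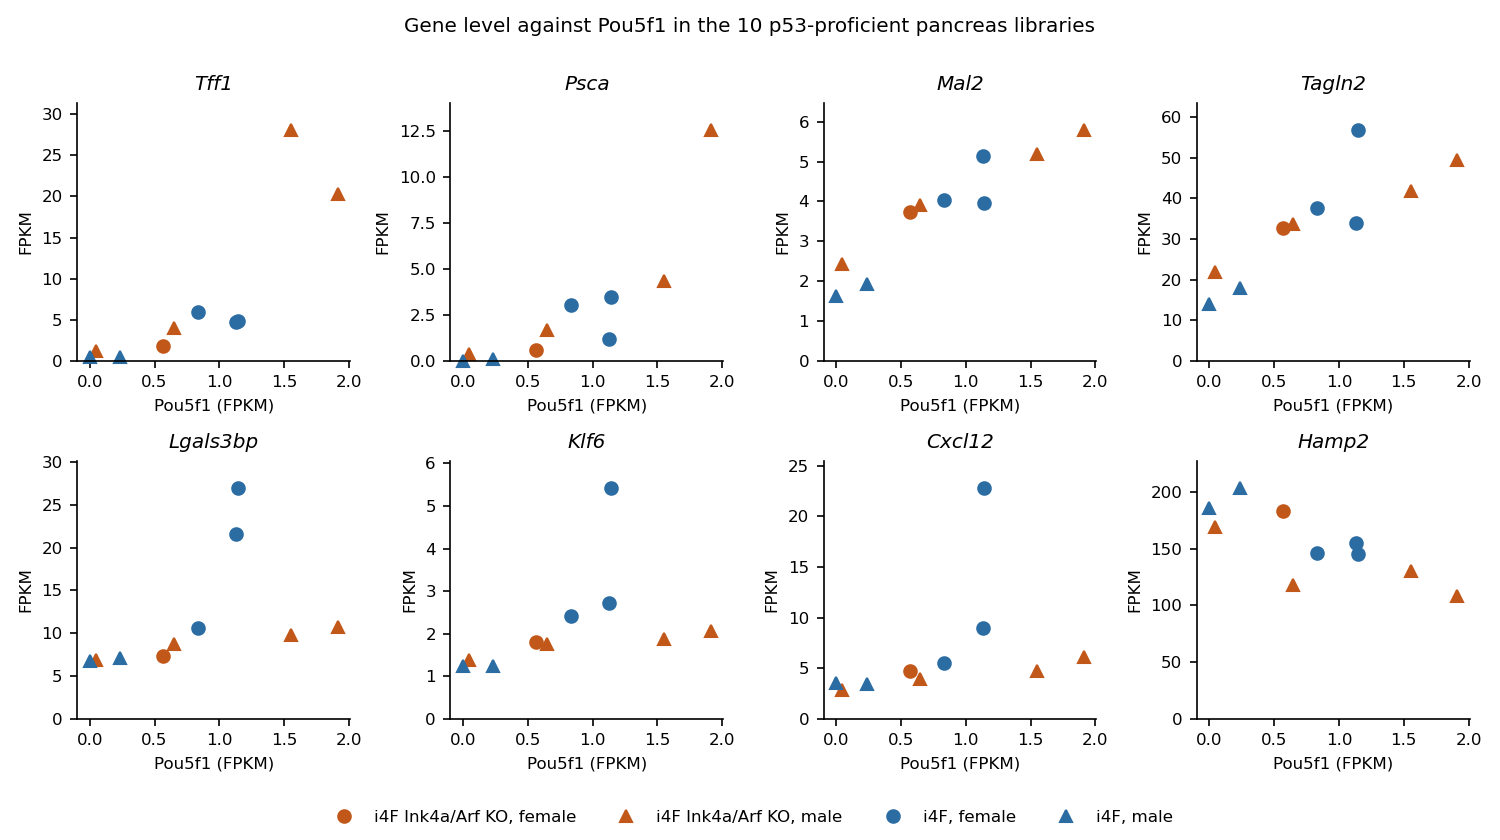
FPKM of 8 genes (vertical axes) against Pou5f1 FPKM (horizontal axes) in the 10 libraries, each point 1 library, coloured by genotype and shaped by sex. Psca, Mal2 and Tff1 tend to rise with Pou5f1, though not at every step. The highest Tff1 values come from i4F Ink4a/Arf KO replicates 3 and 4. The highest Lgals3bp, Klf6 and Cxcl12 values come from i4F replicate 4, and Hamp2 runs the other way.

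The stretch before the transcription start of 2 of these genes is shown because it carried more copies of one short motif than most. Of the 20 genes, 13 were found among 32851 RefSeq promoters (GRCm38.p6). The octamer that Oct4 binds (ATGCAAAT, both strands) was in the 250 bases upstream of 0 of the 13 genes. The shares were 1.60% of all promoters and 1.33% of the tested genes found there. The CCAAT motif (CCAAT, both strands) was upstream of 4 of the 13, against 33.8% of all promoters and 41% of the tested genes found there. A gene was counted if any of its promoters matched, so the shares of tested genes are the like measure. Arrdc4 held 6 copies and Klf6 held 4, which 0.213% of promoters (5 copies or more) and 0.840% (4 or more) reached. Capitals mark CCAAT or its reverse complement, and each sequence runs 5′ to 3′ on the strand of the gene, Arrdc4 from chr7:68749239-68749488 (minus strand) and Klf6 from chr13:5861239-5861488 (plus strand).
Arrdc4: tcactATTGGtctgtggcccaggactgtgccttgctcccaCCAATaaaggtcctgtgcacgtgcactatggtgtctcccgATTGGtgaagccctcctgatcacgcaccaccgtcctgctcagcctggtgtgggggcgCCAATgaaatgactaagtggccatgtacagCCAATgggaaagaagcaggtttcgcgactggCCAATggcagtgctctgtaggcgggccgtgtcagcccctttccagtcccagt
Klf6: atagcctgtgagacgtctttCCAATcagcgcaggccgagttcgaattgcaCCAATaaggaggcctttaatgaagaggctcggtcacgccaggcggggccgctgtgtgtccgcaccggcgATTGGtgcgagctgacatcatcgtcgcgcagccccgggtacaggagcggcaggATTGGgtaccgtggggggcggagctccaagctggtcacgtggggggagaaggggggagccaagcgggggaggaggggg
A match to letters is a description and not a bound site.

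On the opposite side, Cpa1 alone was separated downwards on both scales, and the 0 in its values kept it from being named by that rule. Genes least like Pou5f1 included Hamp2, Ndrg1, Ctrc, Cpb1 and Fn3k. Hamp2, a hepcidin-like peptide gene, was 108, 130, 145, 155 and 146 FPKM in the high libraries and 118, 183, 203, 169 and 186 FPKM in the low. Only i4F Ink4a/Arf KO replicate 2 kept the sets of Hamp2 from separating. Ctrc, an acinar chymotrypsin, was 309, 253, 244, 255 and 275 FPKM in the high libraries and 294, 320, 306, 336 and 385 FPKM in the low, with rho of -0.71 on both scales.

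Among the listed acinar enzymes, 7 of 29 ranked were higher on average in the high set as deposited and 2 of 29 after scaling. Their median rho was -0.30 (scaled, -0.55), beside 0.55 (scaled, -0.04) for all genes. Without i4F replicates 4 and 5 it was -0.36 (scaled, -0.64), whereas the medians of all genes given here are of all 10 libraries. Of the acinar transcription and secretion genes, 14 of 18 were higher in the high set as deposited, beside 96.7% of all genes, and 1 of 18 after scaling, beside 41.3%. Their median rho was 0.27 (scaled, -0.47). The carboxypeptidase gene Cpb1 had a rho of -0.66 (scaled, -0.76). In i4F replicate 5, Prss2 and Cpa1 were listed at 0, and Cela1 was so in i4F replicate 1; in all, 14 genes were at 0 in a library and at 100 FPKM or more in another.

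**Figure D4:**
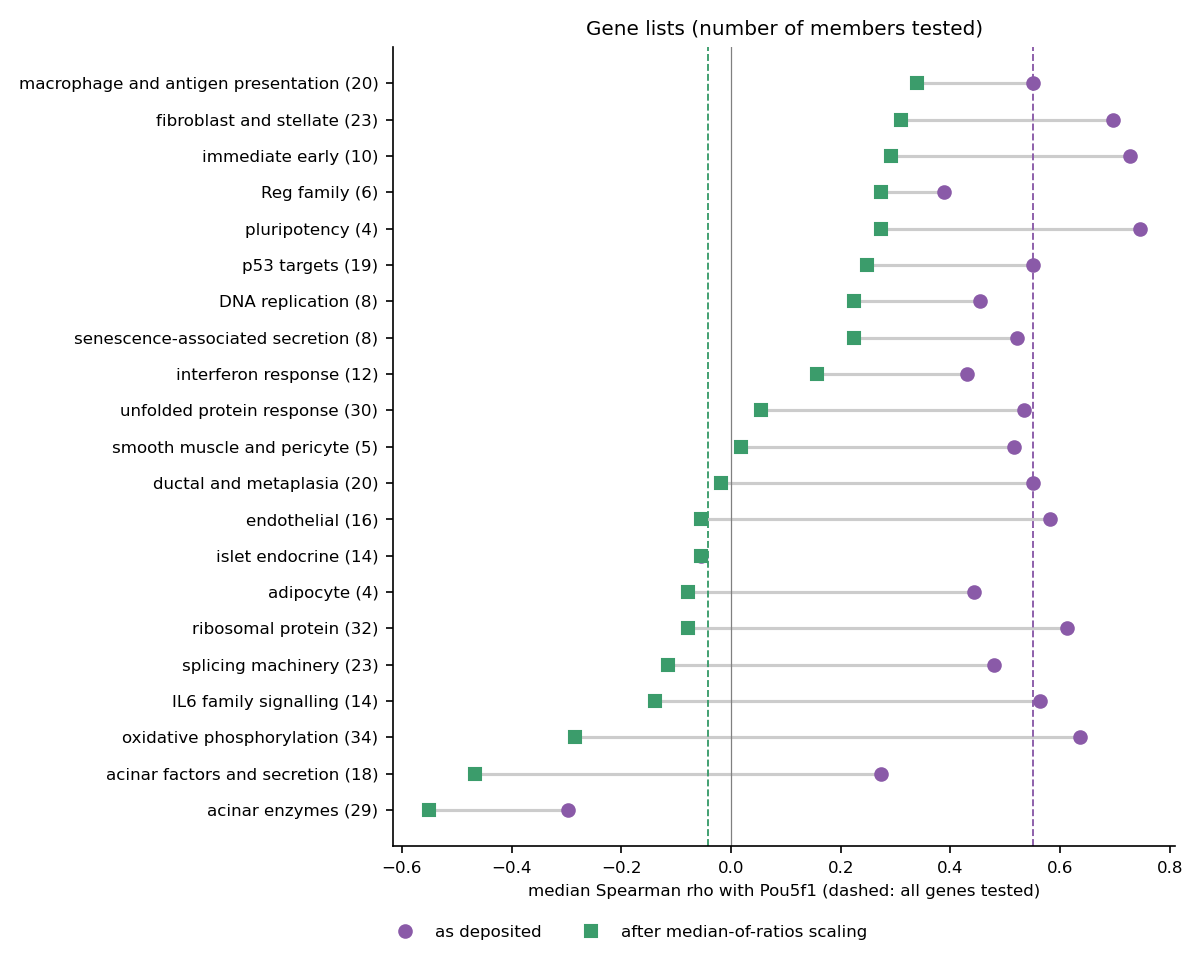
Median Spearman rho with Pou5f1 (horizontal axis) of the gene lists with at least 4 ranked members, as deposited and scaled, beside the medians of all genes (dashed lines). Macrophage, fibroblast and immediate early lists lie right of the dashed lines or on them on both scales, and the acinar enzymes lie left of them on both.

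All 23 ranked fibroblast and stellate cell genes of 28 listed were higher on average in the high set as deposited, beside 96.7% of all genes, and all 23 scaled, beside 41.3%. Their median difference was 0.61 (scaled, 0.25), beside 0.27 (scaled, -0.03) for all genes, and their median rho 0.70 (scaled, 0.31). As deposited 3 of the 23 were separated and 11 reached rho of 0.7, beside 3.28% and 19.5% of all genes; after scaling none was or did. The matrix protein Fbln1 was 2.68, 1.82, 5.00, 1.73 and 1.72 FPKM in the high libraries and 0.845, 1.69, 0.678, 1.06 and 1.11 FPKM in the low. The proteoglycan Lum was 4.99, 2.98, 10.9, 8.27 and 6.00 FPKM in the high libraries and 2.75, 3.90, 2.04, 2.44 and 2.21 FPKM in the low, with 1 pair of libraries out of order. The summed FPKM of the fibroblast list was 214 to 523 in the high set and 152 to 199 in the low, with the maximum in i4F replicate 4. Without that library 23 of 23 were higher as deposited and 20 of 23 scaled, with a median difference of 0.38 (scaled, 0.18). The shares and medians of all genes given above are of all 10 libraries.

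All 20 ranked macrophage and antigen presentation genes of 23 listed were higher in the high set as deposited, which is near the 96.7% of all genes, and all 20 scaled, beside 41.3%. Their median difference was 0.78 (scaled, 0.44). Their median rho of 0.55 as deposited was that of all genes (scaled, 0.34 beside -0.04). None was separated, and none reached rho of 0.7, where 19.5% of all genes did as deposited. Cd68, a lysosomal protein of macrophages, was 3.26, 2.06, 10.3, 4.56 and 2.57 FPKM in the high libraries and 2.42, 3.35, 1.55, 1.96 and 0.895 FPKM in the low. The list summed to 171 to 1465 FPKM in the high set and 117 to 321 in the low. Without i4F replicate 4 the median difference was 0.42 (scaled, 0.18), whereas the values of all genes given here are of all 10 libraries. Endothelial genes were near the shares of all genes, with 16 of 16 higher as deposited and 6 of 16 scaled. The part of these cell types in the order of other genes was not tested.

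Stress and p53 genes gave the following. Of 10 ranked immediate early genes, which cells switch on within minutes of a stimulus, 10 were higher in the high set as deposited, near the 96.7% of all genes, and 9 scaled, beside 41.3%. Of the 10, 6 (scaled, 2) reached rho of 0.7, beside 19.5% (scaled, 1.75%) of all genes. Klf6, named above by its separation, is in this list and in both counts. Junb, an AP-1 subunit, was 3.10, 5.48, 3.94, 2.91 and 2.13 FPKM in the high libraries and 3.61, 1.74, 1.23, 1.60 and 1.20 FPKM in the low, with i4F Ink4a/Arf KO replicate 2 reaching into the high set. Gdf15, a secreted stress cytokine, was 3.55, 1.5, 1.55, 0.909 and 1.24 FPKM in the high libraries and 1.43, 0.701, 0.275, 0.707 and 0.477 FPKM in the low (rho 0.88; scaled, 0.76). Of 19 ranked p53 targets, 17 were higher as deposited and 12 scaled, beside 96.7% and 41.3% of all genes. Their median rho of 0.55 as deposited was that of all genes (scaled, 0.25 beside -0.04). Aen, an apoptosis nuclease, was 4.70, 4.29, 4.91, 5.47 and 3.53 FPKM in the high libraries and 3.61, 4.60, 1.91, 2.55 and 1.47 FPKM in the low, with rho of 0.77 on both scales.

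Of the 20 ranked duct and metaplasia genes, which include Tff1, 19 were higher as deposited and 12 scaled, beside 96.7% and 41.3% of all genes. Their median rho (0.55; scaled, -0.02) was close to that of all genes (0.55; scaled, -0.04). Krt19, the main keratin of duct cells, was 69.4, 26.0, 27.6, 15.3 and 41.1 FPKM in the high libraries and 34.3, 13.5, 9.84, 24.6 and 8.06 FPKM in the low, and the sets overlapped. Krt20, an intestinal and gastric keratin, was 1.47, 0.618, 4.08, 1.54 and 2.95 FPKM in the high libraries and 1.15, 0.811, 0.405, 0.601 and 0.142 FPKM in the low. Ribosomal protein genes changed direction with the scale. In the high set 32 of 32 were higher as deposited and 0 of 32 after scaling, beside 96.7% and 41.3% of all genes. The subunits of oxidative phosphorylation did likewise, with 33 of 34 and 0 of 34, beside the same shares of all genes. For those lists no direction can be given.

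The kidney libraries of the same genotypes, which the ranking did not use, allowed a test of genes against Pou5f1. The labels do not say whether a kidney and a pancreas came from the same mouse, and the sex of i4F replicate 3 differs between the tissues. Kidney Pou5f1 ran from 0 to 5.40 FPKM. In a limma fit of each gene on log2(Pou5f1 FPKM + 1), 123 of 12058 genes (1.02%) had a positive slope and 5 (0.0415%) a negative one at an adjusted p under 0.05; after scaling these were 75 (0.622%) and 5 (0.0415%). Leaving out single libraries moved these counts: without kidney i4F Ink4a/Arf KO replicate 1 there were 758 and 120, and without any one of the other 9 there were 33 to 75 and 0 to 4.

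Of the cassette, Myc and Klf4 were called in the kidney. Sox2 was not tested there, since too few libraries reached 1 FPKM; it was 2.29, 2.00, 0.974, 0.491, 0.205, 0.261, 0.0945, 0.0176, 0.0535 and 0.0194 FPKM in falling order of Pou5f1. Kidney Myc was 11.2, 9.32, 5.47, 5.35, 5.03, 3.97, 1.73, 1.63, 1.59 and 1.63 FPKM in falling order of Pou5f1, with a slope of 0.79 ± 0.07 (SE; limma adjusted p = 0.00108). The 6 libraries highest in Pou5f1 were also the 6 highest in Myc, and Myc was called in each of the 18 alternatives tried. Kidney Klf4 was 7.05, 6.45, 3.81, 4.13, 3.20, 4.52, 2.40, 2.58, 2.09 and 1.92 FPKM, with a slope of 0.45 ± 0.07 (SE; limma adjusted p = 0.0145). The call of Klf4 was lost without i4F Ink4a/Arf KO replicate 3, i4F Ink4a/Arf KO replicate 4 or i4F replicate 4, and with the replicate number as a block; over 17 alternatives its limma adjusted p ran from 0.00139 to 0.0845.

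None of the 20 genes that led in the pancreas was called in the kidney, as deposited or scaled. A positive slope was found for 18 of 20 as deposited, beside 69.6% of all kidney genes, and for 14 of 20 scaled, beside 43.9%. Their median slope was 0.11 (scaled, 0.05), beside 0.05 (scaled, -0.01) for all. The smallest limma adjusted p values were 0.0602 for Tagln2 and 0.0604 for Klf6. Some alternatives did call such genes: Mal2 and Klf6 in 4 of 18 each, and Tagln2 in 2 of 18. Their lowest limma adjusted p values there were 0.0174, 0.0131 and 0.0150. Psca and Tff1 were called in no alternative. Kidney Psca was 3.93, 22.3, 19.7, 0.0644, 0.734, 4.20, 0.753, 0, 0 and 3.37 FPKM in falling order of Pou5f1. Its slope of 1.10 ± 0.38 (SE) had an adjusted p of 0.170 in limma, and only i4F Ink4a/Arf KO replicates 3 and 2 exceeded 5 FPKM. Kidney Mal2 was 22.1, 47.3, 23.1, 20.9, 17.7, 23.2, 11.7, 8.93, 10.1 and 15.3 FPKM, with a slope of 0.53 ± 0.12 (SE; limma adjusted p = 0.0639). Kidney Tff1 ranged over 2.2 to 8.14 FPKM (slope 0.22 ± 0.12, SE; limma adjusted p = 0.309). These misses do not show that the kidney differs from the pancreas; that difference was not tested.

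**Figure D5:**
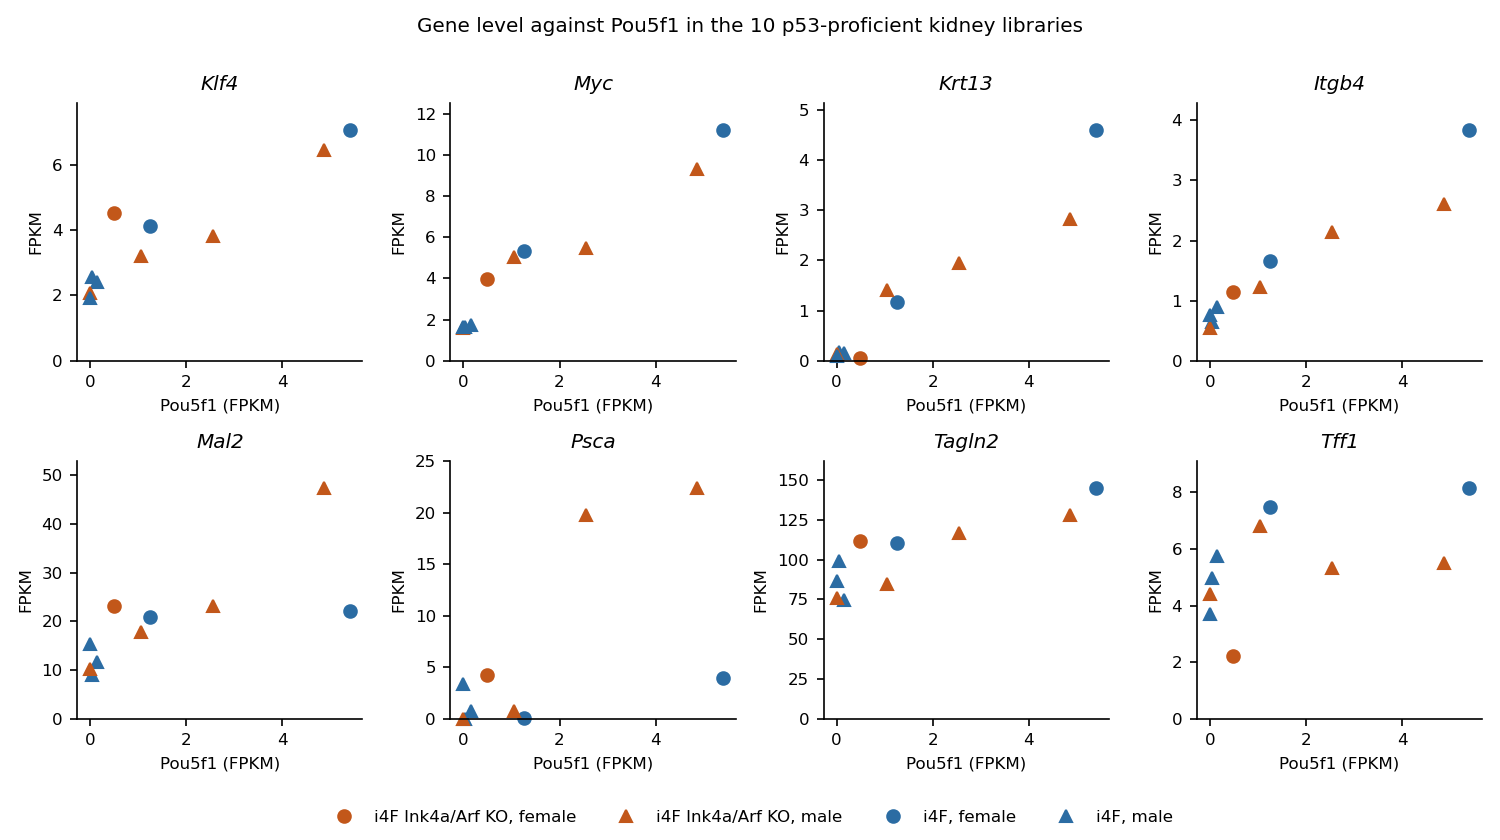
FPKM of 8 genes (vertical axes) against Pou5f1 FPKM (horizontal axes) in 10 kidney libraries, each point 1 library, coloured by genotype and shaped by sex. On deposited values limma called Klf4, Myc, Krt13 and Itgb4, but not Mal2, Psca, Tagln2 and Tff1, which led in the pancreas.

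The genes called in the kidney included Krt13, which had little signal in these pancreases. Krt13, a keratin of stratified epithelium, was 4.59, 2.81, 1.95, 1.17, 1.41, 0.0553, 0.155, 0.178, 0.143 and 0.0896 FPKM in the kidney (slope 0.82 ± 0.07, SE; limma adjusted p = 0.00108), and between 0.0445 and 1.17 FPKM in the 10 pancreas libraries. Krt13 and the next 2 genes were picked after their values were seen. The integrin Itgb4 and the calcium-binding S100a6 were called in the kidney, with slopes of 0.51 and 0.90 (limma adjusted p of 0.00108 and 0.00714), and had pancreas rho of 0.76 and 0.85 (scaled, 0.56 and 0.60).

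Of the 123 kidney genes with a positive slope, 70 were ranked in the pancreas. As deposited, 32 of these 70 (45.7%) had pancreas rho of at least 0.7, where 19.5% of all pancreas genes did; they made up 2.12% of the 1508 genes at that level. All 70 had a positive rho, as 95.1% of all genes did. The cassette factors Klf4 and Myc were among the 32. After scaling, 1 of 44 (2.27%) reached 0.7, beside 1.75% of all genes, and it made up 0.741% of the 135. That gene was Klf4, so no gene outside the cassette reached 0.7 there. On scaled values the median rho of the 44 was 0.46, beside -0.04 for all genes, and 40 of 44 were positive.

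The pancreas libraries labelled p53 KO place these small differences on a wider scale. Trp53 does not check their label: it was 6.65 to 24.8 FPKM in them and 1.64 to 6.99 FPKM in the 10 p53-proficient libraries (scaled difference 0.15 ± 0.13, SE; limma adjusted p = 0.302), and which stretch of Trp53 was deleted is not given in the sources used here. Of the 7724 genes, 6961 (90.1%) were higher and 260 (3.37%) lower in the libraries labelled p53 KO as deposited. After scaling 2128 (27.6%) were higher and 3432 (44.4%) lower, and the median change of all genes moved to -0.16, against 1.58 as deposited. Changes of single genes are therefore given scaled.

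By Xist and Ddx3y all pancreas libraries labelled p53 KO were male, whereas the p53-proficient ones were of both sexes. Sex was not a term in the limma fit. Of the 20 genes that led with Pou5f1, 17 were higher on scaled values, beside 27.6% of all genes. Lower in the libraries labelled p53 KO was 1 (4930444A02Rik), beside 44.4% of all genes. Tff1 was 520, 264, 1985, 330 and 182 FPKM in them and 0.429 to 28.0 FPKM in the p53-proficient pancreases (scaled change 4.60 ± 0.75, SE; limma adjusted p = 6.09e-05). Mal2 was 140, 130, 94.9, 38.5 and 195 FPKM against 1.63 to 5.78 FPKM (scaled change 2.60 ± 0.17, SE; limma adjusted p = 3.02e-08). Psca was 23.5, 14.6, 66.8, 10.6 and 16.3 FPKM against 0 to 12.5 FPKM (scaled change 1.45 ± 0.61, SE; limma adjusted p = 0.0427). Klf4 was 16 to 60.8 FPKM against 1.07 to 3.27 FPKM (scaled change 1.78 ± 0.13, SE; limma adjusted p = 9.25e-08). Rpia and Cxcl12 were not called on scaled values (limma adjusted p of 0.786 and 0.609). The acinar enzymes went the other way, with 23 of 29 lower and 0 higher after scaling.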

How the data were processed

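Whole pancreas and kidney RNA was sequenced. The authors deposited 1 FPKM table for each tissue. The submitters' processing notes name mm10, Cufflinks 2.2.1, SAMtools 0.1.19, Bowtie 1.0.0, TopHat2 2.0.10 and FastQC, without roles; strand handling is not given in the sources used here. Mapped reads exceeded 24M per library, per the labels, but the depth behind single genes is unknown, so no counting interval is given. Symbols listed more than once (27 in each table) were left out, and 0 other columns of per-sample values were passed over.

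Values were analysed as log2(FPKM + 1) for genes that reached 1 FPKM in 5 or more libraries, as deposited and after median-of-ratios scaling. The 10 libraries were ordered by Pou5f1, and each gene was described by Spearman's rho and by the high minus low mean difference; these have no test. Tests were an exact two-sided permutation test of Pou5f1 by genotype, and limma 3.58.1 (R 4.3.3, trended variance, Benjamini-Hochberg adjustment over all genes, threshold 0.05) for genotype, for the kidney slope and for p53 KO against the 10 libraries. The fits were tested on simulated data with known changes. Other steps used Python 3.11.15, numpy 2.4.6, pandas 2.3.3, scipy 1.17.1 and matplotlib 3.10.9.

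The members and the 32 gene lists, some of which overlap, were chosen with earlier results of these data known. Named genes were the cassette and p53 genes, the 12 genes of highest mean rho over both scales, up to 12 genes a side separated on both scales with at least 2 FPKM in the higher set and no implausible 0 (a 0 beside 100 FPKM or more elsewhere), and the 3 leading members of each list; the text names part of them. A few of them are not reported here. Positions are from GENCODE M21 (GRCm38) and promoter sequences from RefSeq (GRCm38.p6). Replicates are separate samples in the labels, which do not say that each is a separate mouse; if some are not, p-values measure technical spread. Alternatives were another scale, pseudocount, filter, covariate or set of libraries, each library left out in turn, and the replicate number as a block.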

Additional observations from a re-analysis of the deposited data

Results flagged for a closer look

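Cxcl12 in i4F replicate 4 stood at 22.8 FPKM, far from the other 4 i4F pancreas libraries, which ran from 3.42 to 8.92 FPKM. Of 58 sets of values looked at in this way (a gene or measure in 1 genotype), 1 was marked by its distance; chance marks about 1 in 20. The same library held the highest fibroblast and macrophage sums, and the part of these cells in its Cxcl12 was not tested.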

How the results depend on the processing

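After scaling, the genes separated upwards and downwards between high and low Pou5f1 became 20 and 42, those at rho of 0.7 and -0.7 became 135 and 140, the kidney slopes called positive 75, and the p53 KO calls 2128 higher and 3432 lower. With no filter on low values 431 and 4 genes were separated, 16 had a rho of -0.7 or less, and 14494 genes were higher in p53 KO. With a filter of 5 FPKM 99 genes were separated upwards, 692 reached rho of 0.7, the kidney slopes were 48 positive and 3 negative, and p53 KO had 2313 higher and 167 lower. Centring on genotype, or leaving out genes listed at 0, left 0 genes separated downwards. Kidney slopes were 338 positive and 15 negative with a pseudocount of 0.1, 469 and 55 with all 15 kidney libraries and genotype as a term, and 76 and 1 with genotype as a term in the 10. The kidney slope of Tff1 turned to -0.00404 with all 15 libraries, and the p53 KO change of 4930444A02Rik to -0.31 after scaling.

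Chosen after seeing the data, centring on sex gave 2279 genes separated upwards, 2524 at rho of 0.7 and 7 at -0.7. There the 5 high libraries were chosen again on centred Pou5f1, and i4F Ink4a/Arf KO replicate 2 replaced i4F replicate 3. The 2279 genes are thus of another split than the main count. The male libraries alone gave 1425 and 120 separated genes and 3856 and 49 past rho of 0.7 and -0.7, where fewer libraries make both easier to reach. Without i4F replicates 4 and 5, 17 genes were separated downwards and 19 had a rho of -0.7 or less.

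Leaving out 1 library at a time gave 250 to 1180 genes separated upwards and 1 to 4 downwards, 878 to 3469 at rho of 0.7 and 4 to 11 at -0.7, a genotype difference in Pou5f1 of 0.0227 to 0.392, 0 genotype calls, 33 to 758 positive and 0 to 120 negative kidney slopes, and 6726 to 7021 higher and 214 to 282 lower genes in p53 KO. Of 288 alternatives for the high minus low mean difference of 24 named genes, 266 moved less than the spread between libraries. Another 22 moved more and 0 changed sign.

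Equal replicate numbers did not pair the libraries: deviations of same-numbered libraries correlated at -0.235 to 0.102 in pancreas and -0.430 to 0.0988 in kidney, and no library correlated best with its own number. With the replicate number as a block there were 0 genotype calls, 37 positive and 1 negative kidney slopes, and 6883 higher and 238 lower genes in p53 KO. Levels under 1 FPKM, Pou5f1 and Sox2 included, rest on few fragments of unknown number, so their order is uncertain.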
